A study of Mus musculus with 10 samples.

Results

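The genes described here are 10 costimulatory genes of the TNF receptor, TNF ligand and CD28 families: the receptor genes Cd28, Icos, Cd27, Tnfrsf4, Tnfrsf9, Tnfrsf18 and Cd40 and the ligand genes Tnfsf4, Tnfsf9 and Cd70. They were chosen by name, and all 10 of them are among the 18193 genes measured, through 17 of the 45101 probe sets on the array. RNA was measured in 10 B16 melanomas on a C57BL/6 background, 5 labelled Bach2-deficient and 5 labelled wild type. Tumors were taken whole and dissociated mechanically, and no treatment is listed. Ages, the number of animals, the part of Bach2 that was removed, and whether tumor cells, host cells or both lacked it are not given in the labels. Each value thus mixes RNA of melanoma cells with that of every infiltrating cell, and a change in the number of cells that express a gene cannot be told apart from a change of its RNA per cell.

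Costimulatory receptors give a T cell the signal that, beside recognition of antigen, sustains its proliferation, survival and cytokine secretion. CD28 binds CD80 and CD86 on antigen-presenting cells, while ICOS, its inducible relative, binds ICOSL, and both recruit phosphoinositide 3-kinase. OX40 (Tnfrsf4), CD137 (Tnfrsf9), GITR (Tnfrsf18) and CD27 are TNF receptor family members that signal through TRAF adaptors to NF-κB. CD40 runs the other way, from CD40 ligand on T cells to B cells, macrophages and dendritic cells. BACH2 is a transcriptional repressor of lymphocytes that binds DNA with small MAF proteins at sites whose core resembles that of AP-1.

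Of the 10 costimulatory genes, 9 rose and 0 fell in Bach2-deficient tumors at a limma adjusted p under 0.05, against a background of 16.3% of all genes that rose and 12.4% that fell (28.7% in either direction). The median change of the costimulatory genes was 1.92 on the log2 scale, where that of all 18193 genes was -0.06. The groups did not overlap for 8 of the 10, with all 5 Bach2-deficient arrays above all 5 wild-type arrays, whereas 11.2% of all genes were placed so and 18.9% had groups apart in either direction. All 7 receptor genes rose, by 1.74 to 3.62 on the log2 scale. The 3 ligand genes changed by 0.28 to 0.83, and Cd70 did not pass. The plot of the values by array shows each gene.

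**Figure D1:**
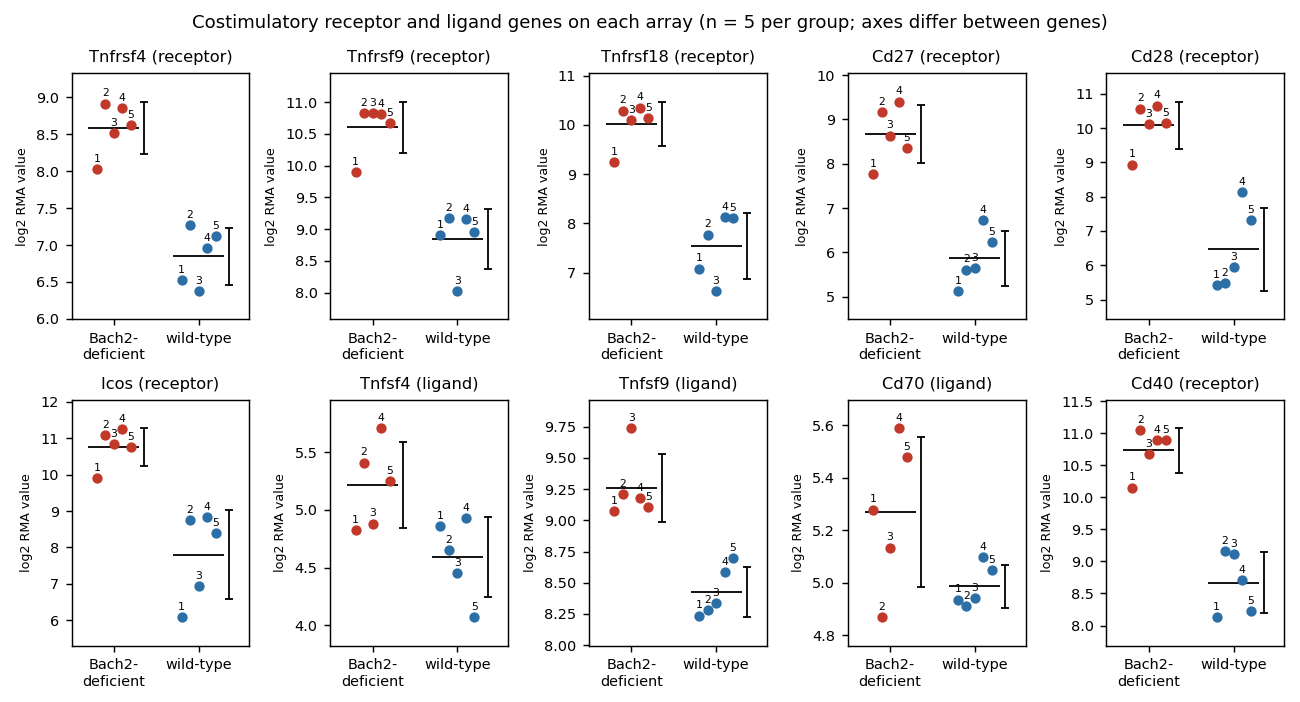
Log2 RMA value of each costimulatory gene on each array, 1 panel a gene with its own vertical axis, Bach2-deficient arrays left and wild-type arrays right. Digits are replicate numbers, horizontal lines are means and bars to the right are SDs (n = 5 each). The groups are apart for 8 genes and overlap for Tnfsf4 and Cd70.

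Some features of the arrays moved with genotype. Bach2 itself, through probe set 1436515_at, averaged 4.70 ± 0.55 in Bach2-deficient and 5.75 ± 0.54 in wild-type tumors (SD, n = 5 each; limma adjusted p = 0.033 over all probe sets), while its other 2 probe sets did not pass: 1445460_at, the brightest, changed by -1.07 (limma adjusted p = 0.0615) and 1437667_a_at by -0.35 (limma adjusted p = 0.371). The 24 poly-A spike control probe sets, for RNA added before labelling, averaged 9.93 to 10.2 on Bach2-deficient and 11.9 to 12.4 on wild-type arrays. The 18 hybridization control probe sets were apart too, at 11.55 to 11.88 on Bach2-deficient and 11.96 to 12.64 on wild-type arrays. A technical difference behind these controls cannot be told apart from genotype. Xist was low on 4 Bach2-deficient arrays (4.76 to 6.61), and high on the fifth, replicate 2 (11.86), and on all wild-type arrays (11.36 to 12.23). The Y-linked Eif2s3y ran the other way, at 10.5 to 10.9 on those 4 arrays and 4.50 on Bach2-deficient replicate 2. On wild-type arrays it read 5.07 to 7.68. These 2 genes mark sex, which is thus hard to tell apart from genotype here and was not tested. All 10 measured T cell marker genes rose, and their mean ranged from 9.16 to 10.52 on Bach2-deficient and from 5.98 to 7.42 on wild-type arrays.

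Cd28 and Icos are the genes of the CD28 family among the 10, and both rose. Cd28, the principal costimulatory receptor of naive T cells, read 8.93, 10.56, 10.12, 10.65 and 10.14 on the Bach2-deficient arrays, against 5.41, 5.49, 5.96, 8.14 and 7.32 on the wild-type arrays (probe set 1437025_at, log2, replicates 1 to 5). All Bach2-deficient arrays were above all wild-type arrays, and the wild-type arrays spread over more than the distance from the highest of them to the lowest Bach2-deficient array. The change was 3.62 (SE 0.55; 12.3-fold; limma adjusted p = 0.00128). The other Cd28 probe set changed by 3.12, without overlap. Icos, induced on activated T cells, read 9.90, 11.09, 10.83, 11.24 and 10.74 on the Bach2-deficient arrays, against 6.08, 8.75, 6.95, 8.84 and 8.39 on the wild-type arrays (1436598_at). Wild-type replicates 1 and 3 were the low ones, and the groups did not overlap. Its change was 2.96 (SE 0.53; 7.77-fold; limma adjusted p = 0.00268), and the other 2 Icos probe sets changed by 2.59 and 2.87. The SD of these genes was larger in wild-type tumors: for Cd28 0.69 in Bach2-deficient and 1.21 in wild-type tumors, and for Icos 0.52 in Bach2-deficient and 1.22 in wild-type tumors.

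CD27, a receptor of naive and memory T cells that supports their survival, belongs to the TNF receptor family. Cd27 read 7.77, 9.17, 8.64, 9.40 and 8.36 on the Bach2-deficient arrays, against 5.13, 5.61, 5.64, 6.73 and 6.23 on the wild-type arrays (1452389_at). The highest wild-type array, replicate 4, lay under the lowest Bach2-deficient array, replicate 1. The change was 2.80 (SE 0.36; 6.94-fold; limma adjusted p = 0.000583).

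GITR and OX40 are receptors that activated T cells carry and that regulatory T cells carry at high level. Tnfrsf18, encoding GITR, read 9.24, 10.29, 10.09, 10.35 and 10.15 on the Bach2-deficient arrays, against 7.08, 7.77, 6.63, 8.12 and 8.11 on the wild-type arrays (1422303_a_at). Every Bach2-deficient array was above every wild-type array, with Bach2-deficient replicate 1 well under the other 4. Its change was 2.48 (SE 0.32; 5.59-fold; limma adjusted p = 0.000611). Tnfrsf4, encoding OX40, read 8.02, 8.92, 8.52, 8.86 and 8.62 on the Bach2-deficient arrays, against 6.52, 7.27, 6.38, 6.96 and 7.12 on the wild-type arrays (1420351_at). The groups were again apart, with a change of 1.74 (SE 0.22; 3.34-fold; limma adjusted p = 0.00051). Of 8 markers of regulatory T cells 4 rose and 0 fell, against 16.3% and 12.4% of all genes. Il2ra (2.18), Ctla4 (1.77), Ikzf2 (0.92) and Foxp3 (0.80, limma adjusted p = 0.00877) rose, while Ikzf4, Ccr8, Gpr83 and Nrp1 did not pass. The median change of the 8 was 0.73, where that of the T cell markers was 3.04. The mean of the 8 ranged from 7.51 to 8.42 on Bach2-deficient and from 6.79 to 7.53 on wild-type arrays. The part of regulatory T cells in the rises of Tnfrsf18 and Tnfrsf4 was not tested.

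CD137 is induced on T and NK cells after activation. Tnfrsf9, which encodes it, read 9.90, 10.82, 10.83, 10.81 and 10.67 on the Bach2-deficient arrays, against 8.90, 9.17, 8.02, 9.15 and 8.95 on the wild-type arrays (1460469_at). The lowest array of each group, Bach2-deficient replicate 1 and wild-type replicate 3, stood apart from its 4 fellows, and the groups did not overlap. The change was 1.77 (SE 0.25; 3.40-fold; limma adjusted p = 0.000956). The 3 probe sets of this gene disagreed: 1428034_a_at changed by 2.33 and passed, while 1421481_at, with a wild-type mean of 4.73 among the dimmest 30% of values for genes (under 4.98), changed by -0.21 and did not pass (limma adjusted p = 0.285). NK cell markers rose on the same arrays, 5 of 5 measured, their mean at 8.47 to 10.1 on Bach2-deficient and 5.30 to 6.61 on wild-type arrays, and their part in the rise of Tnfrsf9 was not tested.

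CD40 licenses dendritic cells and macrophages and activates B cells. Cd40 read 10.15, 11.05, 10.67, 10.89 and 10.89 on the Bach2-deficient arrays, against 8.13, 9.17, 9.11, 8.71 and 8.23 on the wild-type arrays (1439221_s_at). The groups did not overlap, and the lowest Bach2-deficient array was replicate 1. The change was 2.06 (SE 0.24; 4.18-fold; limma adjusted p = 0.000405), and the other 2 Cd40 probe sets changed by 2.29 and 2.32. Of 7 B cell markers measured 0 rose and 0 fell (limma adjusted p under 0.05), and the smallest unadjusted p among them was 0.306. The B cell mean ranged from 4.48 to 7.12 on Bach2-deficient and from 5.35 to 5.85 on wild-type arrays. Of 8 macrophage markers 6 rose, with a mean of 10.8 to 11.6 on Bach2-deficient and 9.33 to 10.5 on wild-type arrays. Of 8 dendritic cell markers 5 rose and 1 fell, with a mean of 7.55 to 8.49 on Bach2-deficient and 6.71 to 7.26 on wild-type arrays. The part of these myeloid cells in the rise of Cd40 was not tested.

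The ligands of the TNF family are made mainly by antigen-presenting cells and, after activation, by T cells. Tnfsf9, the ligand of CD137, read 9.07, 9.21, 9.74, 9.18 and 9.11 on the Bach2-deficient arrays, against 8.24, 8.28, 8.34, 8.58 and 8.70 on the wild-type arrays (1422924_at). Its groups did not overlap, and Bach2-deficient replicate 3 was the highest. The change was 0.83 (SE 0.15; 1.78-fold; limma adjusted p = 0.00282). Tnfsf4, the ligand of OX40, read 4.82, 5.41, 4.88, 5.71 and 5.25 on the Bach2-deficient arrays, against 4.86, 4.65, 4.45, 4.93 and 4.07 on the wild-type arrays (1421744_at). These groups overlapped, with 3 Bach2-deficient arrays above all wild-type ones. Its change of 0.62 (SE 0.21) had a limma adjusted p of 0.0489. It did not pass when adjusted over all probe sets (0.0555) or in 7 of 10 fits that left out 1 array, whose changes ran from 0.49 to 0.72 and whose adjusted p ran from 0.0285 to 0.112. Its wild-type mean of 4.59 lay under 4.98, so the size is not exact. Cd70, the ligand of CD27, read 5.28, 4.87, 5.13, 5.59 and 5.48 on the Bach2-deficient arrays, against 4.94, 4.91, 4.94, 5.10 and 5.05 on the wild-type arrays (1449926_at). Bach2-deficient replicate 2 lay under all wild-type arrays and the other 4 above them. The change of 0.28 (95% interval -0.02 to 0.58) did not pass (limma adjusted p = 0.141), but passed without Bach2-deficient replicate 2 (0.38, limma adjusted p = 0.0449). Endothelial cells can make the OX40 ligand, and their part in the change of Tnfsf4 was not tested. Of 7 endothelial markers 1 rose (Pecam1) and 2 fell (Cdh5 and Egfl7), against 16.3% and 12.4% of all genes. Cdh5 averaged 3.93 in Bach2-deficient and 4.59 in wild-type tumors, both under 4.98.

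**Figure D2:**
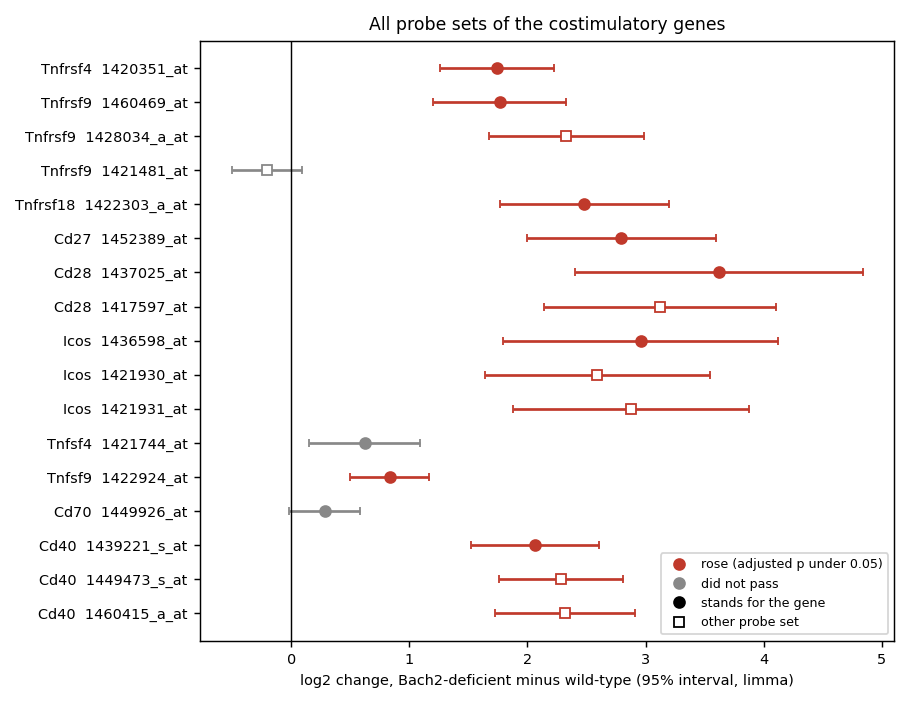
Log2 change (Bach2-deficient minus wild-type) of all 17 probe sets of the costimulatory genes with 95% intervals from limma. Filled circles stand for the gene and open squares are its other probe sets; 14 rose, and grey marks the 3 that did not pass.

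Over probe sets, 14 of 17 rose and 0 fell, where 14.1% of all single-gene probe sets rose and 10.1% fell. Among genes with more than 1 probe set, those of Cd28, Icos and Cd40 pointed up in every case and those of Tnfrsf9 did not.

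Within the Bach2-deficient group, replicate 1 was the lowest of its group for 9 of the 10 genes and replicate 4 the highest for 6. The extremes of the wild-type group were spread over more arrays: replicate 4 was the highest for 6 genes and replicate 2 for 3, while replicate 1 was the lowest for 5 and replicate 3 for 3. The T cell marker mean was likewise lowest on replicate 1 of each group, 9.16 in Bach2-deficient and 5.98 in wild type. It was highest on Bach2-deficient replicate 4 (10.52) but on wild-type replicate 2 (7.42). The low place of replicate 1 was not particular to T cells. In both groups the NK cell, regulatory T cell, macrophage, dendritic cell and endothelial marker means were also lowest there. Bach2-deficient replicate 1 had the lowest B cell mean of its group too (4.48), and the highest melanocyte marker mean (12.38).

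Each gene was next set against T cell content as the arrays show it, by the per-array difference between the gene and the mean of 10 T cell markers. With 5 arrays a group the smallest exact permutation p is 0.00794. The differences of Tnfrsf4 (-1.41), Tnfrsf9 (-1.38), Cd40 (-1.08) and Tnfsf9 (-2.31) were lower in Bach2-deficient tumors, without overlap (2-sided exact permutation adjusted p = 0.0132 over 10 genes). These 4 rose less than the mean of the T cell markers on these probe sets, although with the mean of all probe sets Cd40 did not pass (-0.59, exact permutation adjusted p = 0.0661). The single markers rose by 1.69 (Cd4) to 4.71 (Cd8b1), with Cd8a (4.23) and Themis (4.38) also high. Tnfrsf4, Tnfrsf9 and Cd40 rose more than Cd4, and Tnfsf9 rose less than every marker. Tnfsf4 (-2.53) and Cd70 (-2.87) also had an exact permutation adjusted p of 0.0132. Both read at or near the dim level of 4.98, where a rise of the marker mean alone lowers the difference. Nothing is therefore read from them. The difference of Tnfrsf18, -0.67 with a 95% limma interval of -1.27 to -0.06, did not pass the exact permutation test (adjusted p = 0.068). It did pass without Bach2-deficient replicate 5 (-0.76, exact permutation adjusted p = 0.0227), without wild-type replicate 2 (-0.78, adjusted p = 0.0397) and without wild-type replicate 3 (-0.82, adjusted p = 0.0454). Nor did Cd28, Icos or Cd27 pass: the difference of Cd28 was 0.47 (95% interval -0.32 to 1.26), that of Icos -0.19 (-0.84 to 0.46) and that of Cd27 -0.35 (-0.97 to 0.26), with exact permutation adjusted p of 0.503, 0.587 and 0.278. Single wild-type arrays decided these values. Without wild-type replicate 2 Cd27 passed (-0.59, exact permutation adjusted p = 0.0227) and Cd28 was at 0.056, while without wild-type replicate 4 Cd28 was at 0.84, Icos at 0.013 and Cd27 at -0.19, none of which passed. Probe sets differ in affinity and background, and dim ones compress changes, so the sizes are those of these probe sets.

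**Figure D3:**
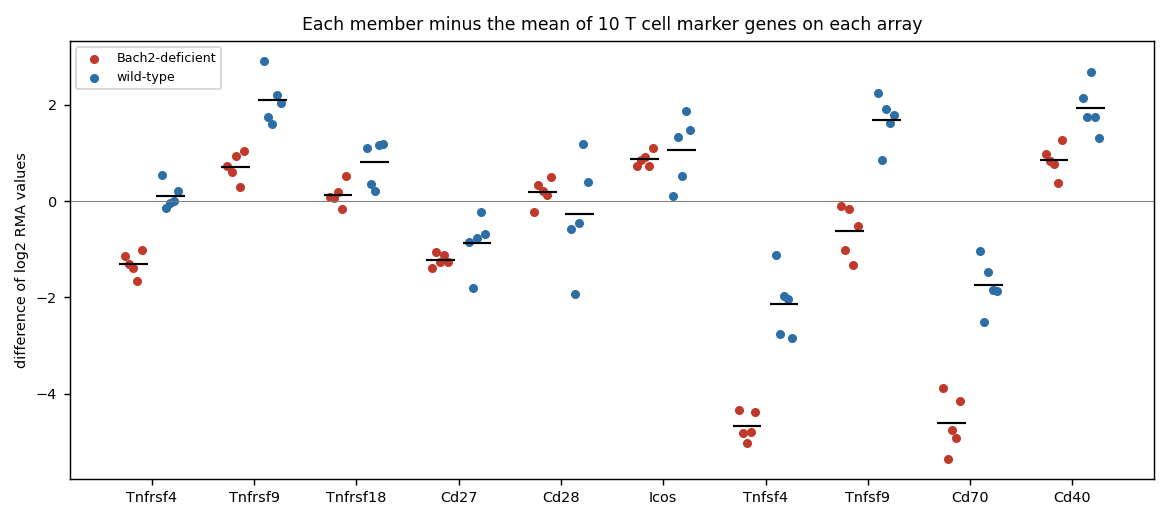
Difference between each costimulatory gene and the mean of 10 T cell markers on each array, in log2 units, Bach2-deficient left of wild-type for each gene; lines are means (n = 5 each). Bach2-deficient arrays lie wholly under wild-type arrays for Tnfrsf4, Tnfrsf9, Tnfsf4, Tnfsf9, Cd70 and Cd40, and overlap them for Tnfrsf18, Cd27, Cd28 and Icos.

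Receptors were then paired with their ligands. Of the partner genes outside the set of 10, Cd86 averaged 11.26 ± 0.53 in Bach2-deficient and 8.74 ± 0.63 in wild-type tumors (SD, n = 5 each), a change of 2.53 (SE 0.33; limma adjusted p = 0.000642). Icosl changed by 1.28 (limma adjusted p = 0.00281) and Cd80 by 1.25 (limma adjusted p = 0.0215). Cd40lg, the X-linked gene of CD40 ligand, read 4.79 to 5.00 on Bach2-deficient and 4.97 to 5.12 on wild-type arrays, and its change of -0.15 did not pass (limma adjusted p = 0.203). The mean of its Bach2-deficient arrays lay under 4.98, so a change of this gene would be hard to read on this probe set.

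In 7 of 7 measured pairs the per-array difference of the T cell side minus its partner differed between genotypes (2-sided exact permutation test, adjusted over the 7 pairs). Tnfrsf18 could not be paired, as its ligand gene Tnfsf18 had no probe set of its own. Against ligands read above the dim level of 4.98, Cd28 rose more than Cd80 by 2.37 and Icos more than Icosl by 1.68, each without overlap (exact permutation adjusted p = 0.0111). Tnfrsf9 rose more than Tnfsf9 by 0.93 (exact permutation adjusted p = 0.0185). Cd28 over Cd86, at 1.09, was close to the threshold (exact permutation adjusted p = 0.0476), and it passed in 1 of the 10 tests that left out 1 array, whose values ran from 0.70 to 1.42. In the other 3 pairs 1 gene read at or near the dim level in wild-type tumors, so the difference mostly restates the change of the brighter gene and cannot show an unequal rise. These were Cd27 minus Cd70 (2.51), Tnfrsf4 minus Tnfsf4 (1.12) and Cd40lg minus Cd40 (-2.21), each without overlap and with an exact permutation adjusted p of 0.0111. With Cd28 read by its other probe set, a choice made after the data were seen, neither of its pairs passed (Cd80 1.87, exact permutation adjusted p = 0.0648; Cd86 0.59, adjusted p = 0.167). With the mean of all probe sets Tnfrsf9 over Tnfsf9 was 0.46 (exact permutation adjusted p = 0.0556).

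**Figure D4:**
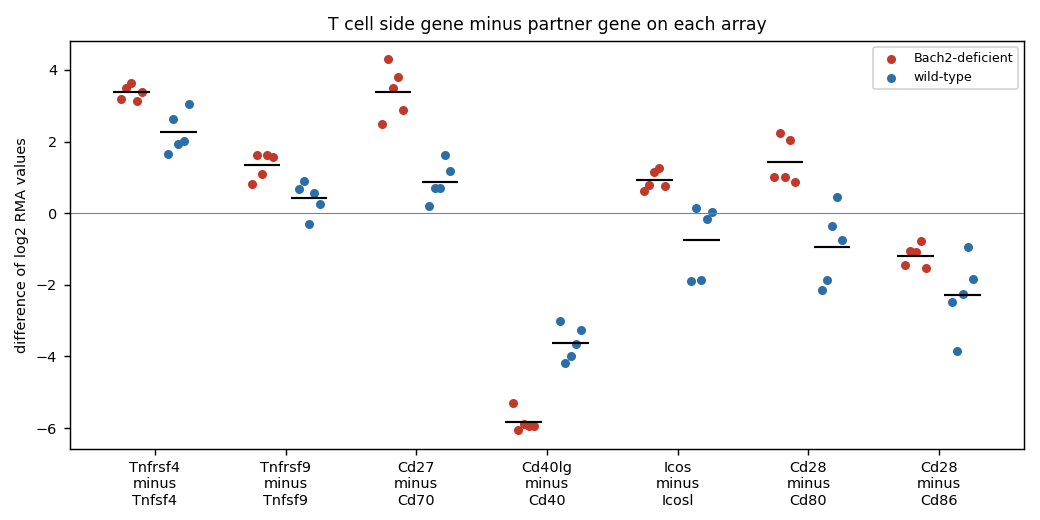
Difference of log2 values, T cell side gene minus partner gene, on each array for 7 pairs, Bach2-deficient left of wild-type; lines are means (n = 5 each). The Bach2-deficient arrays lie higher in 6 pairs and lower for Cd40lg minus Cd40; the groups overlap for Tnfrsf9 minus Tnfsf9 and Cd28 minus Cd86.

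Ligands and receptors related to the 10 genes rose too. Their list, called partners here, holds Icosl, Cd80, Cd86 and Cd40lg from above. It also holds Ctla4 (1.77), an inhibitory receptor gene that is among the regulatory T cell markers as well. Of 14 measured on the list of partners 10 rose and 0 fell, with a median change of 1.27 against -0.06 over all genes. Over all genes 16.3% rose and 12.4% fell, which is the background for each list here. Slamf1, an adhesion and signalling receptor of activated lymphocytes, rose by 3.10 (SE 0.51), the CD48 receptor gene Cd2 by 2.71 (SE 0.35), and Tnfsf14, the ligand of HVEM known as LIGHT, by 2.27 (SE 0.37; limma adjusted p = 0.00169). Cd40lg, Tnfrsf25 (0.06), Tnfrsf8 (-0.14) and Tnfsf8 (-0.12) did not pass. Of 16 genes measured of TRAF and NF-κB signalling, which carries the signal of the TNF family receptors, 14 rose and 0 fell, with a median of 1.31. Nfkbie, an inhibitor of NF-κB, rose by 2.39 (SE 0.39), the adaptor genes Traf5 and Traf1 by 2.36 and 2.17, Birc3, a ubiquitin ligase bound to TRAF proteins, by 2.31 (SE 0.33), and the NF-κB subunit gene Rel by 2.04. Ikbkg (0.57, limma adjusted p = 0.0981) and Map3k14 (-0.11, limma adjusted p = 0.493) did not pass. The wild-type mean of Traf5 (4.67) lay under 4.98.

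Genes of signalling near CD28 and the T cell receptor rose in 12 of 13 cases, and 0 fell, with a median of 1.30. For this list and the next the background over all genes was again 16.3% that rose and 12.4% that fell. Pik3cd, the lymphocyte catalytic subunit of phosphoinositide 3-kinase, rose by 2.84 (SE 0.26), the adaptor genes Lat and Lcp2 by 2.75 and 2.54, Zap70, the kinase of the T cell receptor, by 2.21 (an _x_at probe set), and Vav1 by 2.21. Akt1, a kinase expressed in most cells, changed by -0.15 (limma adjusted p = 0.382). Of 11 genes that costimulation is known to induce in T cells 8 rose and 0 fell, with a median of 1.14. Ifng rose by 5.84 (SE 0.60; limma adjusted p = 0.000245), with a wild-type mean of 4.95, under 4.98, Il4 by 3.13 (SE 0.79), the chemokine gene Ccl4 by 2.26 and Il2ra by 2.18. Bcl2l1 (0.45), Il21 (0.74) and Myc (-0.04) did not pass. Il2ra is also on the list of regulatory T cell markers. All 10 T cell markers rose beside these lists, with a median of 3.04, and the part of T cell number in the rises was not tested.

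**Figure D5:**
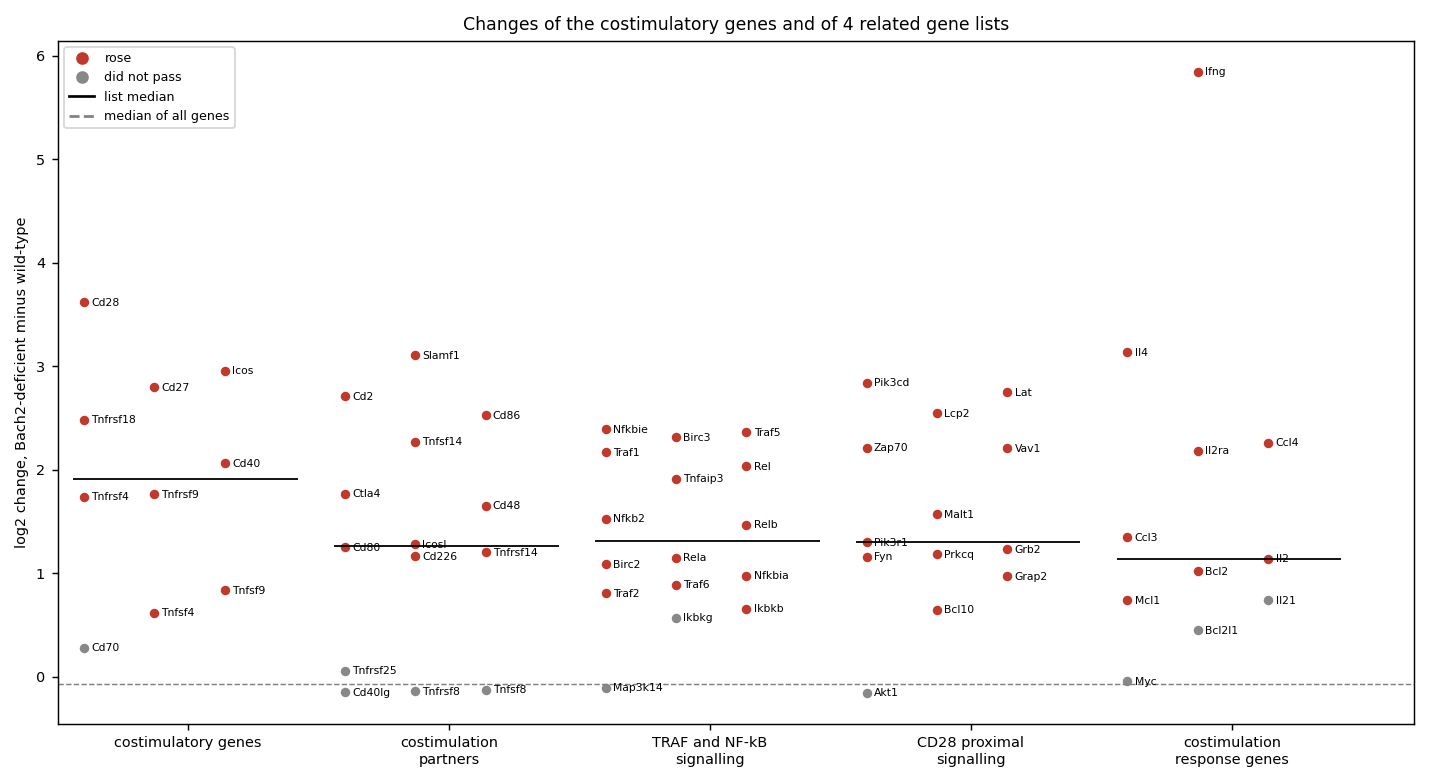
Log2 change (Bach2-deficient minus wild-type) of the 10 costimulatory genes and of the measured genes of 4 related lists, 1 point a gene. Black lines are list medians (1.92, 1.27, 1.31, 1.30 and 1.14 from left to right) and the dashed line is the median of all genes (-0.06).

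Several of the genes lie beside each other. By the order of protein-coding genes in the RefSeq table (GRCm38.p6), Tnfrsf4 and Tnfrsf18 are direct neighbours on chromosome 4, and Cd28 and Icos lie on chromosome 1 with only Ctla4 between them. On the outer side of the first pair stand Sdf4 (0.38, limma adjusted p = 0.0276) and Ttll10 (0.27, limma adjusted p = 0.175), while those within it changed by 1.74 and 2.48. Next outward of the first pair, B3galt6 (-0.33) and 9430015G10Rik (-0.32) did not pass. Beside the second group stand Raph1 (0.15) and Pard3b (0.09), neither of which passed, with Ctla4 itself at 1.77 (limma adjusted p = 0.0025). Next outward of these, Abi2 changed by -0.50 (limma adjusted p = 0.00858) and Nrp2 by 1.04 (limma adjusted p = 0.0467). Fasl, 2 places from Tnfsf4 on chromosome 1, rose by 4.75 (limma adjusted p = 5.57e-05), with a wild-type mean of 4.52, under 4.98. Tnfsf9 and Cd70 are neighbours on chromosome 17, followed by Tnfsf14 (2.27), which rose more than either. Near Cd27 on chromosome 6, Tapbpl, a peptide-loading gene related to tapasin, rose by 2.56 (limma adjusted p = 0.000309), Ltbr, the lymphotoxin beta receptor gene 2 places to the other side, changed by -0.32 (limma adjusted p = 0.0382), and Vamp1 by 0.45 (limma adjusted p = 0.424).

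Promoter windows, from 250 bases before to 50 after a transcript start, were at hand for 4 of the 10 genes, in 5 windows (RefSeq, GRCm38.p6). They were searched on both strands, a palindrome being counted once, for the AP-1 core TGANTCA, the longer MAF recognition element (MARE) that contains it, the NFAT core GGAAAA, a narrow form of the NF-κB site with fewer letters left free, and the full NF-κB consensus. The full consensus was added after the narrow form had matched none of the 5 windows and the Tnfrsf9 sequence had been seen, so its match there was picked by eye first and is not a blind find. A window of Tnfrsf9 (chr4:150927749-150928048, plus strand), the downstream one of its 2, held 1 AP-1 match and 2 overlapping NF-κB matches. The windows of the neighbours Tnfrsf4 (chr4:156013445-156013744, plus strand) and Tnfrsf18 (chr4:156026072-156026371, plus strand), which rose on the same arrays, held neither of these. These 3 are shown in lower case, 5′ to 3′, with matches to the AP-1 core and the NF-κB consensus in capitals.
Tnfrsf9: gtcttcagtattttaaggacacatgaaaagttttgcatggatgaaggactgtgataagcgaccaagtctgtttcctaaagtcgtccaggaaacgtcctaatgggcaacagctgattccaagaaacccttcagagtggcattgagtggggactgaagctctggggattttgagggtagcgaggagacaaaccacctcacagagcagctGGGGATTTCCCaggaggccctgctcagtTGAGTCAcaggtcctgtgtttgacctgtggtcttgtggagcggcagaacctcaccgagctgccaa
Tnfrsf4: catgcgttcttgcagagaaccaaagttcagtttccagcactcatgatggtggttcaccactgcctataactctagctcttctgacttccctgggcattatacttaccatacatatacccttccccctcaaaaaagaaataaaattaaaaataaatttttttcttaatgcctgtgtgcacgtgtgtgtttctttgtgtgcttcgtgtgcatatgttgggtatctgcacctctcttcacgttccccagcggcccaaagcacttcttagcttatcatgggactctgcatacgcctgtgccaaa
Tnfrsf18: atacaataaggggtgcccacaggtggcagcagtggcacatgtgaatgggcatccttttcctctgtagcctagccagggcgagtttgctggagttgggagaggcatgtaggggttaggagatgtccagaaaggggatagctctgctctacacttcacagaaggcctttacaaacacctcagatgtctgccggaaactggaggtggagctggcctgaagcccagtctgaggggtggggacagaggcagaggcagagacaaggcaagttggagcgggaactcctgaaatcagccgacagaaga
Of 32851 such windows of all genes, 7.81% held the AP-1 core, 8.46% the NF-κB consensus, 0.411% its narrow form, 23.4% the NFAT core and 0.00609% the MAF element. The MAF element and the narrow form matched none of the 5. The NFAT core matched once in each of the Tnfrsf18, Cd27 and upstream Tnfrsf9 windows, and the upstream Tnfrsf9 window and that of Cd27 held neither of the capitalised motifs. A match is only a run of letters, and its absence says only that the letters are not in the window.

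For each gene that rose, the 2 genes nearest in profile were found by the mean absolute difference, over the 10 arrays, of log2 values centred on each gene's own mean. Over 18183 other genes the nearest to Tnfrsf4 was Usp18 (0.099), to Tnfrsf9 Zup1 (0.126), to Tnfrsf18 AI504432 (0.152) and to Cd27 Notch1 (0.142). The nearest to Cd28 was Prdm1 (0.223), to Icos Gpr31b (0.170), to Cd40 Trim12a (0.106), to Tnfsf9 Ptpn12 (0.091) and to Tnfsf4 Pik3c3 (0.125). Second in order came Gng2 (0.110) for Tnfrsf4, Rnf113a2 (0.153) for Tnfrsf9, Ifit2 (0.155) for Tnfrsf18, B4galnt1 (0.185) for Cd27, Ipcef1 (0.322) for Cd28, Crybg1 (0.188) for Icos, Prkcd (0.114) for Cd40, Lgals3 (0.101) for Tnfsf9 and Zfp952 (0.125) for Tnfsf4. The profiles share the genotype contrast and the array quality, and the distances are a description.

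When the fit also held each array's Xist class (high or low), its genotype term rested on Bach2-deficient replicate 2 alone. That array, the only one of its group with high Xist, was set against the wild-type mean, so only sizes are read from this fit. Icos was at 3.28, Tnfsf9 at 0.78 and Tnfsf4 at 0.82, where the main changes were 2.96, 0.83 and 0.62. The other 6 that rose were at 1.98 (Tnfrsf9) to 4.10 (Cd28). The mean of 9 melanocyte markers was also used as a covariate. Only Bach2-deficient replicate 1 (12.38) lay among the wild-type values of that mean (12.22 to 12.44). The other Bach2-deficient arrays (11.69 to 12.05) lay under all of them, so this covariate and genotype are hard to separate. In that fit Tnfrsf4, Tnfrsf18, Cd27 and Cd40 passed. Cd28 (3.08, limma adjusted p = 0.0686), Tnfrsf9 (1.47, adjusted p = 0.0573), Icos (2.45, adjusted p = 0.113), Tnfsf9 (0.82, adjusted p = 0.0813) and Tnfsf4 (0.28, adjusted p = 0.602) did not.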

How the data were processed

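RNA of 10 tumors was hybridised to 1-colour Affymetrix mouse arrays. The deposited table holds log2 values that the authors made with RMA (background correction, quantile normalization and probe summary) and Partek, per the submitters' processing notes; no version is stated in the labels. The scale was read from the values (1.99 to 14.4, array medians 5.80 to 5.88), which were used as deposited. Detection calls were not used. Precision is limited by having 5 arrays a group.

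Probe sets with 1 gene symbol in the platform annotation (34945; 932 had several, 9160 none, 64 were controls) were used, each gene by its brightest (18193 genes). Genotype was fitted with limma 3.58.1 in R 4.3.3 over all 10 arrays, with Benjamini-Hochberg adjustment over all genes or probe sets. The code was tested on simulated data. Differences of pairs and from the T cell mean were tested by exact permutation (scipy 1.17.1) with 95% intervals from limma. The labels do not state that each tumor is from its own animal, and p-values therefore reflect only the spread among these samples, possibly a technical one. The 10 genes, lists and alternatives were chosen with earlier results of these data known. Genes named were the 10, their partners, nearest profiles, and list genes past a log2 change of 2 (at most 5 a list) or not passing (at most 4). Chosen after values were seen were the chromosomal neighbours, the named regulatory T cell and endothelial markers, and the NF-κB consensus motif. Listed genes without a probe set of their own are not analysed here. Alternatives are in the closing section.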

Additional observations from a re-analysis of the deposited data

Results flagged for a closer look

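Among the 34 groups of 5 arrays (17 probe sets in each genotype), 5 held an array far from the other 4 by Dixon's ratio (critical value 0.71), where chance gives about 1 in 20 groups. For Tnfrsf9, Bach2-deficient replicate 1 read 9.90 where the others read at least 10.67, and wild-type replicate 3 read 8.02 where the others read at least 8.90 (1460469_at). On its dim probe set 1421481_at wild-type replicate 5 read 5.01, above 4.71. For Tnfrsf18, Bach2-deficient replicate 1 read 9.24, under 10.09. For Tnfsf9, Bach2-deficient replicate 3 read 9.74, above 9.21. Without Bach2-deficient replicate 1 the calls of Tnfrsf9 and Tnfrsf18 were kept.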

How the results depend on the processing

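The 9 calls among costimulatory genes numbered 8 to 9 in the 10 fits that left out 1 array. Leaving aside the fit with the Xist term, Tnfrsf4, Tnfrsf18, Cd27 and Cd40 rose in every alternative. With the melanocyte covariate 4 costimulatory genes rose, with 483 of all genes rising and 192 falling, 2 costimulation partners, 2 TRAF and NF-κB genes, 5 CD28 signalling genes and 1 response gene. With the Xist term 1030 of all genes rose and 387 fell, with 5 partners, 5 TRAF and NF-κB genes and 4 response genes rising. The genotype term of that fit rested on Bach2-deficient replicate 2 alone. Its counts are therefore no check of the results against sex, and nothing is read from them. Without 1 array, falls over all genes numbered from 1388 to 2807. The cause was not tested. Cd70 changed by -0.12 with the Xist term, where the main value was 0.28. That value only sets Bach2-deficient replicate 2 (4.87) against the wild-type mean (4.99). The difference of Icos from the T cell mean ran from -0.43 to 0.013 without 1 array (0.013 without wild-type replicate 4), and that of Cd28 was -0.025 by its other probe set, where the main value was 0.47. That of Cd40 did not pass with the mean of the probe sets (-0.59, exact permutation adjusted p = 0.0661). Same-numbered arrays of the 2 groups correlated at 0.01 to 0.32 in their deviations from group means, and only 2 of 5 matched their own number best, so the numbers were not taken as pairs. With the replicate block 9 costimulatory genes rose, and 2842 of all genes rose and 2110 fell. With that block in limma the difference of Tnfrsf18 from the T cell mean passed (-0.67, adjusted p = 0.0343). Dim probe sets (Tnfsf4, Cd70, Cd40lg) limit what their changes can show.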

Other observations

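The 2 probe sets of Cd28 ordered the wild-type arrays differently. Probe set 1437025_at was highest on wild-type replicates 4 and 5 (8.14 and 7.32) and low on replicate 2 (5.49). The other was highest on replicates 2 and 3 (5.98 and 5.83) and read 4.72 and 5.02 on replicates 4 and 5. The 3 probe sets of Icos and the 3 of Cd40 showed no such turn between their highest arrays, wild-type replicates 2 and 4 for Icos and replicate 2 for Cd40, except that 1460415_a_at of Cd40 read lowest on replicate 4 (6.37). On the Bach2-deficient arrays both Cd28 probe sets were lowest on replicate 1 and highest on replicate 4.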
